A study of Mus musculus with 25 samples.

Results

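Glucose enters islet cells through facilitative glucose transporters and is trapped inside them by phosphorylation. The genes of these steps and of the opposing phosphatases were followed in αTC1 and βTC6, 2 mouse pancreatic islet tumour lines. The set was chosen by name and comprised 9 genes: the transporters Slc2a1, Slc2a2 and Slc2a3, the hexokinases Hk1 and Hk2, the glucose-6-phosphatase catalytic subunits G6pc2 and G6pc3, and the fructose-bisphosphatases Fbp1 and Fbp2. Each symbol matched 1 of the 24439 genes in the RNA-seq tables, and 44 of the 65053 consensus ATAC-seq peaks had 1 of the 9 as their deposited nearest gene.

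αTC1 (alpha TC1 clone 6, a single clone) is a glucagon-producing line and βTC6 an insulin-producing line. Both derive from tumours of mice that express SV40 large T antigen, driven by the glucagon promoter in αTC1 and by the insulin promoter in βTC6. RNA-seq was done on 3 libraries of each line, and ATAC-seq, which counts transposase insertions as a measure of open chromatin, on 5 libraries of each line and on 9 mixtures that held 10 to 90% αTC1 cells, with 100000 cells in each. αTC1 cells were grown with 10% serum and 2 g/L added glucose in one formulation of DMEM and βTC6 cells with 15% serum and sodium pyruvate in another, so effects of the line and of its medium cannot be told apart. The study names the 2 base media by catalogue number and does not state their glucose. The added glucose therefore does not show which line had more. The labels do not say that replicates were separate cultures, so p-values measure the spread between these libraries, which may be technical.

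Transporters of the SLC2 (GLUT) family carry glucose down its gradient, and hexokinases add the phosphate that commits it to metabolism. Glucose-6-phosphatase removes that phosphate in the endoplasmic reticulum, and fructose-1,6-bisphosphatase reverses the phosphofructokinase step of glycolysis. In rodent beta cells glucose entry by Slc2a2 (GLUT2) and scarcity of high-affinity hexokinases are textbook features of glucose sensing, and Hk1 is often listed among the genes kept low in mature beta cells.

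The RNA-seq libraries held 21795367 to 25876765 expected counts on genes, and the ATAC-seq libraries 4397851 to 10374903 reads in peaks. All 5 alpha cell markers were higher in every αTC1 library and all 6 beta cell markers in every βTC6 library: glucagon (Gcg) lay at 12113 to 14406 FPKM in αTC1 and 172 to 267 in βTC6, and Ins2 at 0.190 to 0.640 in αTC1 and 23541 to 35748 in βTC6. Of the 4 markers of delta, PP and epsilon cells, 2 were higher in every βTC6 library, and their summed level was 238 to 349 FPKM there against 0.310 to 1.04 in αTC1, with somatostatin (Sst) at 207 to 325 in βTC6 and 0 in αTC1. The 4 acinar markers summed to 46.7 to 80.4 FPKM in αTC1 and 1.11 to 2.95 in βTC6, and 3 of the 4 stayed under 1 FPKM in all 6 libraries. The summed levels of the duct and fibroblast lists were at most 4.63 and 3.43 FPKM, those of the endothelial and leukocyte lists at most 0.290 and 2.19. The part of these markers in the results was not tested.

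Of the αTC1 RNA-seq libraries, replicate 3 stood apart from the others, and the βTC6 libraries were not compared in this way. Among 8804 tested genes at 5 FPKM or more in all 3 αTC1 RNA-seq libraries, αTC1 replicate 3 was over 1.5 times the mean of replicates 1 and 2 for 169 genes (1.92%) and under 1/1.5 of it for 54 (0.613%), whereas replicates 1 and 2 differed from each other by that much for 7. Slc2a1 was 2.25 times, Slc2a3 2.19 times, Hk2 2.12 times and Hk1 1.31 times the mean of the other αTC1 libraries in replicate 3, while G6pc2 and G6pc3 were at 1.04 and 1.02 times and Fbp1 and Fbp2 at 0.899 and 0.856 times. The fold change of each of the 9 genes is therefore also given without this library. Chromosome 6, which carries Slc2a3 and Hk2, was lower in βTC6 as a whole: the median log2 fold change of its 4282 other peaks was -0.79 and that of its other tested genes was -0.76, against 0.00 and 0.01 over all peaks and all genes. The part of that shift in the differences of these 2 genes was not tested.

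By edgeR's quasi-likelihood test with an FDR threshold of 5%, 2 of the 9 genes were higher in βTC6 and 6 were higher in αTC1, and all 8 also passed an absolute log2 fold change of 2 (fold changes are βTC6 over αTC1 throughout, so a negative value is higher in αTC1). The higher ones in βTC6 were Slc2a2 and G6pc2, and those in αTC1 were Slc2a1, Slc2a3, Hk1, Hk2, Fbp1 and Fbp2. G6pc3 did not pass. Of the 12195 genes tested, 38.7% were called higher in βTC6 and 36.0% in αTC1, and 10.2% and 4.08% with the fold threshold added. All 9 genes passed the filter of 1 FPKM in every library of either line, but Slc2a2, Hk2, Fbp1 and Fbp2 did so in 1 line only, which favours a difference, so their count supports nothing. Of the 5 genes at 1 FPKM or more in all 6 libraries, 1 was higher in βTC6 and 3 in αTC1, where 34.2% and 37.2% of the 10423 such genes were called. In bulk RNA, fewer cells that express a gene and less RNA per cell cannot be told apart.

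**Figure D1:**
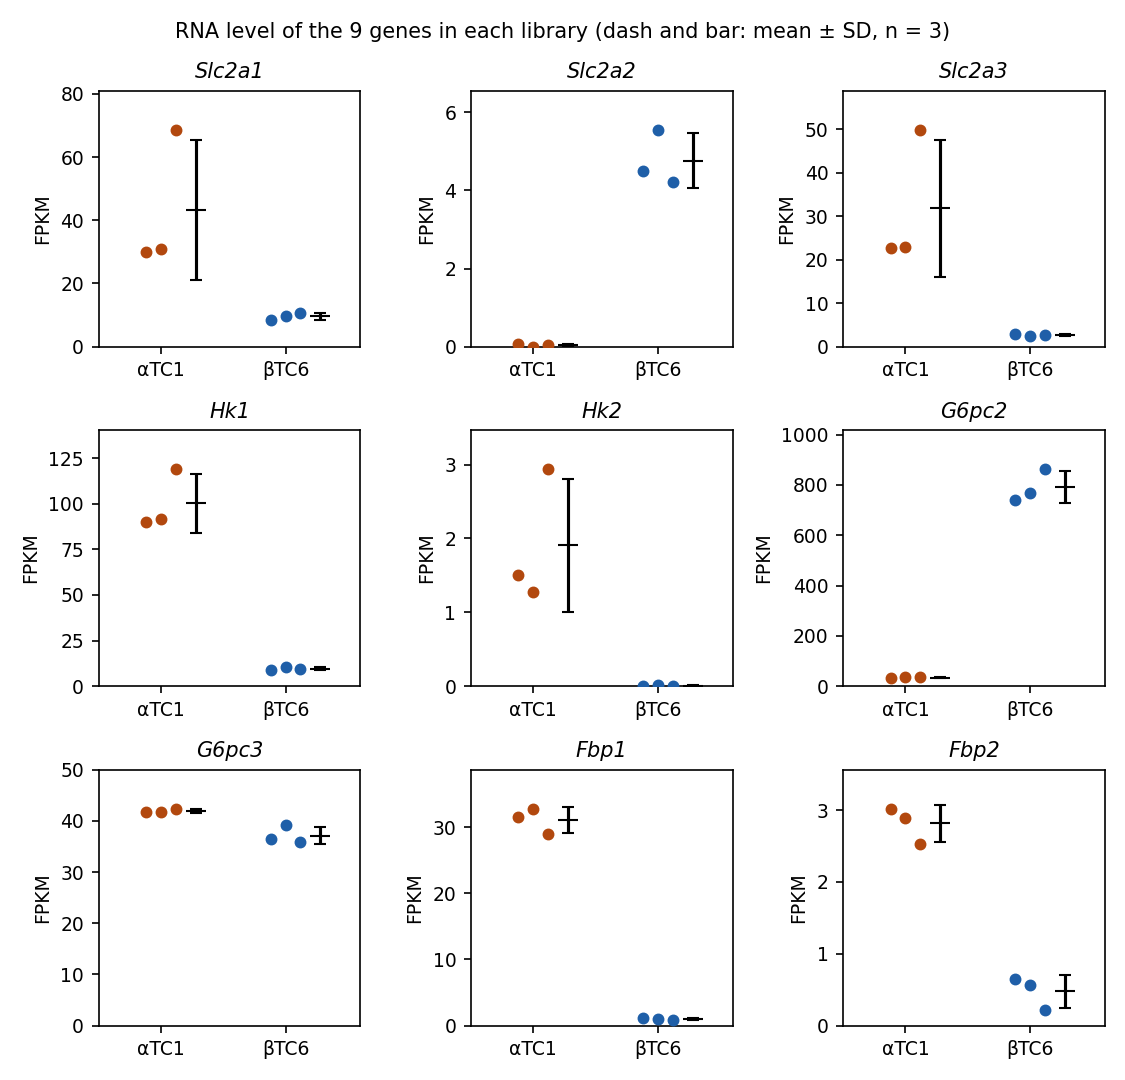
RNA level (FPKM, linear axis from 0, one scale per gene) of each of the 9 genes in the 3 αTC1 libraries (orange) and 3 βTC6 libraries (blue), with the mean and SD beside each group. The 2 lines do not overlap for any of the 9 genes. The share of all tested genes without overlap was not counted, so this says nothing particular about the 9. The third αTC1 point stands above the other αTC1 points for Slc2a1, Slc2a3, Hk1 and Hk2.

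Slc2a1 (GLUT1), the widely expressed basal glucose transporter, was the most abundant of the 3 transporters in all 6 libraries. It measured 30.1, 30.8 and 68.7 FPKM in αTC1 and 8.55, 9.58 and 10.6 in βTC6. All αTC1 libraries were above all βTC6 libraries, and the log2 fold change was -2.12 ± 0.30 (SE, edgeR adjusted p = 0.000191, n = 3 per line). Without αTC1 replicate 3 it was -1.61 ± 0.10 (edgeR adjusted p = 6.33e-06), so the direction and the FDR call held and the fold threshold was no longer passed.

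Slc2a3 (GLUT3), a high-affinity transporter best known from neurons, measured 22.6, 22.9 and 49.9 FPKM in αTC1 and 2.86, 2.44 and 2.65 in βTC6. The lines were far apart in every library, with a log2 fold change of -3.24 ± 0.27 (edgeR adjusted p = 5.21e-06) and -2.83 ± 0.09 without αTC1 replicate 3. Some of its expected counts were fractional, meaning that RSEM divided reads between Slc2a3 and other loci, so its level carries that uncertainty.

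Slc2a2 (GLUT2), the low-affinity transporter of rodent beta cells and liver, ran the other way. It was listed at 0.06, 0 and 0.05 FPKM in αTC1, from 2, 0 and 3 counts, and at 4.50, 5.56 and 4.23 FPKM in βTC6, from 266, 342 and 258 counts. With library sizes taken into account the summed counts were 168 times higher in βTC6 (exact 95% interval 71.9 to 520.1, counting error only). The fitted log2 fold change of 7.29 ± 0.41 (edgeR adjusted p = 4.49e-07) depends on the prior count at so low a level, and was 7.93 without αTC1 replicate 3. The reference annotation places 1700112D23Rik over part of the Slc2a2 locus, and RSEM was run with its default settings, which count without strand, so reads from a shared stretch cannot be told apart by strand. The expected counts of Slc2a2 were whole numbers in all 6 libraries, unlike those of Slc2a3 and Hk1. Even in βTC6, Slc2a2 made up 28% ± 3.71 (SD, n = 3) of the summed FPKM of the 3 transporters, against 0.0520% ± 0.0575 in αTC1. The summed level of all 3 was 75.0 ± 37.7 FPKM in αTC1 and 17.0 ± 0.934 in βTC6. An exact permutation test of the share over 3 against 3 libraries (2-sided) gave p = 0.100, the smallest p this design allows.

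Hk1, a hexokinase with high affinity for glucose that is inhibited by its product, was the most abundant of the 9 genes in αTC1. It measured 90.1, 91.5 and 119 FPKM in αTC1 and 9.12, 10.6 and 9.14 in βTC6. No libraries overlapped, and the log2 fold change was -3.24 ± 0.15 (edgeR adjusted p = 1.28e-07) and -3.08 ± 0.10 without αTC1 replicate 3. A few of its expected counts were fractional, as for Slc2a3.

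Hk2, the insulin-regulated hexokinase of muscle and fat, was low in αTC1 and close to absent from the βTC6 counts. It measured 1.5, 1.28 and 2.94 FPKM in αTC1 (184, 174 and 413 counts) and 0, 0.01 and 0 in βTC6 (0, 1 and 0 counts). The summed counts were 793 times higher in αTC1, with an exact 95% interval of 142 to 31354 from the single βTC6 count. The fitted log2 fold change of -9.15 ± 0.69 (edgeR adjusted p = 2.86e-06) depends on the prior count and is no bound, and was -8.68 without αTC1 replicate 3 and -11.01 without βTC6 replicate 2, the library with the single count. Hk1 accounted for 98.2% ± 0.533 of the summed FPKM of both hexokinases in αTC1 and 100.0% ± 0.0545 in βTC6, and their sum was 102 ± 17.4 FPKM in αTC1 and 9.62 ± 0.849 in βTC6 (exact permutation test of the share, p = 0.100).

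G6pc2, the islet glucose-6-phosphatase subunit, was the most abundant of the 9 genes in βTC6. It measured 32.0, 34.5 and 34.5 FPKM in αTC1 and 740.2, 769.6 and 863 in βTC6. It was thus well expressed in both lines, with a log2 fold change of 4.62 ± 0.11 (edgeR adjusted p = 3.93e-09), or 24.6-fold, and 4.64 without αTC1 replicate 3.

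G6pc3, the ubiquitous subunit, measured 41.8, 41.7 and 42.4 FPKM in αTC1 and 36.4, 39.1 and 35.9 in βTC6. The FPKM values of the lines did not overlap, but the log2 fold change of the counts was -0.10 ± 0.08 (edgeR adjusted p = 0.274), and -0.09 without αTC1 replicate 3. limma on log2(FPKM + 1) gave -0.17 ± 0.07 (limma adjusted p = 0.0460), a fit that differs from the edgeR fit in its test, normalization and scale. G6pc2 accounted for 44.5% ± 0.954 of the summed FPKM of both subunits in αTC1 and 95.5% ± 0.452 in βTC6, with sums of 75.6 ± 1.64 and 828 ± 63.5 FPKM (exact permutation test of the share, p = 0.100). By library the share was 43.4, 45.2 and 44.8% in αTC1 and 95.3, 95.2 and 96.0% in βTC6. The order of the subunits was therefore reversed between the lines: G6pc3 was higher in all 3 αTC1 libraries and G6pc2 in all 3 βTC6 libraries.

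Fbp1, the fructose-1,6-bisphosphatase of liver and kidney, measured 31.5, 32.8 and 28.9 FPKM in αTC1 and 1.14, 1.01 and 0.890 in βTC6. The lines differed 29.4-fold, with a log2 fold change of -4.88 ± 0.13 (edgeR adjusted p = 7.60e-09) that was -4.92 without αTC1 replicate 3. Fbp2, the muscle form, measured 3.02, 2.89 and 2.53 FPKM in αTC1 and 0.650, 0.560 and 0.220 in βTC6, where it rested on 22, 19 and 7 counts. Its log2 fold change was -2.49 ± 0.33 (edgeR adjusted p = 0.000109), and -2.56 without αTC1 replicate 3. By limma on log2(FPKM + 1) it was -1.38, short of the fold threshold. Fbp1 made up 91.7% ± 0.393 of the summed FPKM of the pair in αTC1 and 69.4% ± 9.34 in βTC6, and the sum was 33.9 ± 2.19 against 1.49 ± 0.347 FPKM (exact permutation test of the share, p = 0.100). The βTC6 shares were uneven, at 63.7, 64.3 and 80.2%.

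**Figure D2:**
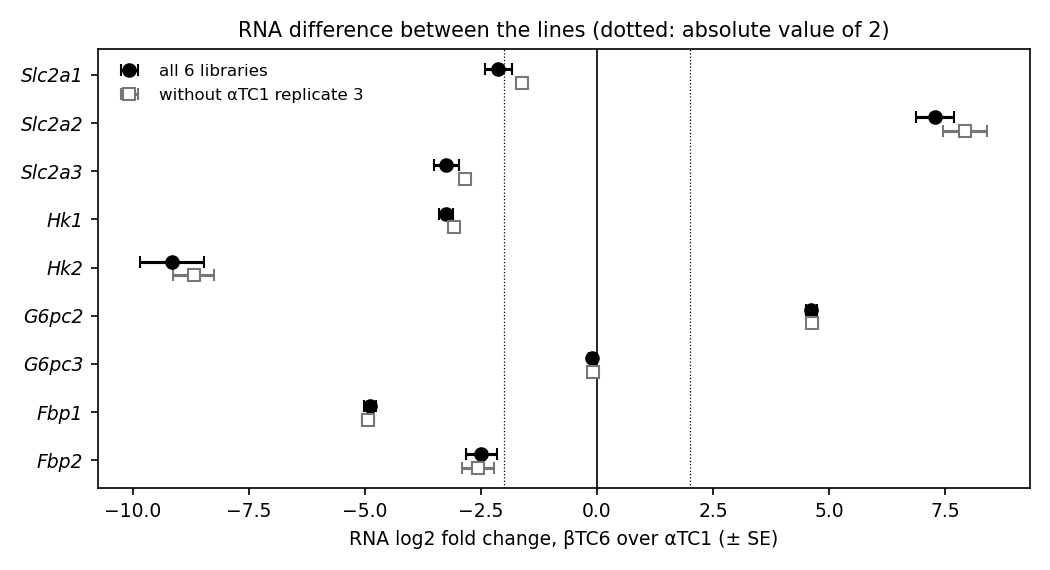
RNA log2 fold change (βTC6 over αTC1) of the 9 genes with its SE, from all 6 libraries (filled circles) and without αTC1 replicate 3 (open squares); dotted lines mark an absolute value of 2. Slc2a2 and G6pc2 lie to the right of 0, G6pc3 lies at -0.10, the other 6 lie to the left, and Slc2a1 moves from -2.12 to -1.61 when the library is left out.

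Ranked by mean FPKM, which is per length, the order in αTC1 was Hk1 (100.3), Slc2a1 (43.2), G6pc3 (42.0), G6pc2 (33.7), Slc2a3 (31.8), Fbp1 (31.1), Fbp2 (2.81), Hk2 (1.91) and Slc2a2 (0.0367). The ranges over libraries overlapped between Slc2a1 and G6pc3, between G6pc2, Slc2a3 and Fbp1 as neighbours, and between Fbp2 and Hk2. In βTC6 the order was G6pc2 (791), G6pc3 (37.2), Hk1 (9.62), Slc2a1 (9.57), Slc2a2 (4.76), Slc2a3 (2.65), Fbp1 (1.01), Fbp2 (0.477) and Hk2 (0.00333), and the ranges of Hk1 and Slc2a1 alone overlapped among neighbours.

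The peaks near these genes were distributed unevenly, with 12 at Slc2a2, 6 each at Slc2a1, G6pc2 and Fbp1, 5 at Hk2, 4 at Slc2a3, 3 at Hk1 and 1 each at G6pc3 and Fbp2. Their unit is the TMM-normalized read count, and their log2 fold changes are on the log2(normalized read count + 1) scale, which understates the change of low peaks. By limma with the same FDR threshold, βTC6 was the more open line at 13 of the 44 peaks and αTC1 at 24, beside 39.9% and 38.1% of all peaks. With the fold threshold of 2 added, the counts were 8 for βTC6 and 6 for αTC1, beside 12.9% and 5.38% of all peaks. They were 6 and 8 after quantile normalization, which turned their order, and 10 and 9 by edgeR on the recovered reads. Of the 13 peaks more open in βTC6, 8 belonged to Slc2a2. The peaks of 1 gene share a locus and are not independent of each other. Within replicates 1 to 3 alone and within replicates 4 and 5 alone, 2 sets for which the study's library table computes the mitochondrial share of reads in different ways, the counts at the FDR threshold were 12 and 12 for βTC6 and 23 and 20 for αTC1.

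**Figure D3:**
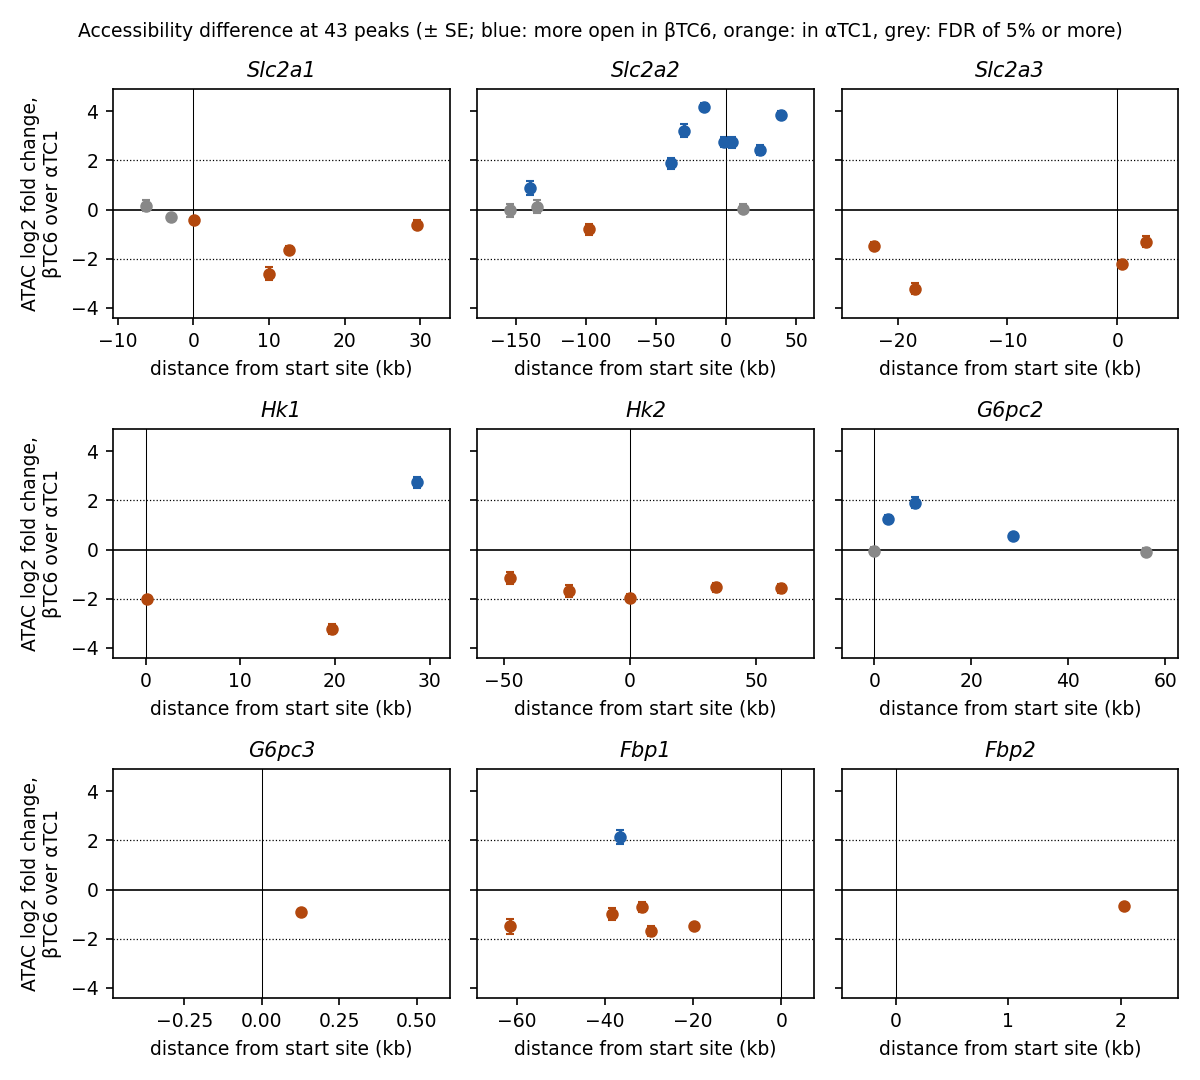
ATAC log2 fold change (βTC6 over αTC1, with SE) of 43 of the 44 peaks against their distance from the gene's start site in kb, negative distances upstream; blue marks peaks called for βTC6, orange those called for αTC1 and grey those that missed the FDR threshold of 5%. The dotted lines mark an absolute value of 2. For Slc2a2 6 peaks lie above 2 and all peaks of Slc2a3 and Hk2 lie below 0.

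At Slc2a2 (chr3:28596825-28627278, plus strand, mm9), 8 of 12 peaks were more open in βTC6, 6 of them past the fold threshold, and 1 was more open in αTC1. No consensus peak overlapped the 300 bases around the RefSeq start of the gene. The peak 15.8 kb upstream, in intergenic sequence, held 1.16 to 1.77 normalized reads in αTC1 (8 to 13 reads per library) and 38.6, 40.6, 41.6, 46.1 and 49.4 in βTC6. The lines did not come near each other there, and the log2 fold change was 4.18 ± 0.15 (limma adjusted p = 1.84e-14, n = 5 per line). The peak 39.5 kb downstream of the start, beyond the 3′ end of the gene in an intron of 1700112D23Rik, held 1.69 to 2.94 in αTC1 and 38.7, 40.6, 41.9, 44.5 and 53.4 in βTC6 (3.84 ± 0.15, limma adjusted p = 4.67e-14). The nearest upstream peak, at 1.82 kb, held 0.819, 2.1, 2.25, 2.40 and 2.6 in αTC1 and 16.9, 17.8, 19.2, 19.5 and 20.8 in βTC6 (2.74 ± 0.20, limma adjusted p = 2.47e-10). The centre of each of these peaks is shown because they hold the largest accessibility differences of the set and the one closest to the start. Capitals mark any of 8 short motifs on either strand.

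Slc2a2 15.8 kb upstream, chr3:28580957-28581156 (mm9, plus strand): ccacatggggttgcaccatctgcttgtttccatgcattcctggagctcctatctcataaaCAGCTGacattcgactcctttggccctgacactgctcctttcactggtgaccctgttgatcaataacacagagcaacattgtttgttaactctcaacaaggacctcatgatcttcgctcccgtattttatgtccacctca

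Slc2a2 1.82 kb upstream, chr3:28594905-28595104 (mm9, plus strand): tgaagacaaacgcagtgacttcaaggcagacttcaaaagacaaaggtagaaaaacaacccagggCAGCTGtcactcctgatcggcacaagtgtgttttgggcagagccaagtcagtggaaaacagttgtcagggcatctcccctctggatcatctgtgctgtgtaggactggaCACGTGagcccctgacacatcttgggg

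Slc2a2 39.5 kb downstream, chr3:28636201-28636400 (mm9, plus strand): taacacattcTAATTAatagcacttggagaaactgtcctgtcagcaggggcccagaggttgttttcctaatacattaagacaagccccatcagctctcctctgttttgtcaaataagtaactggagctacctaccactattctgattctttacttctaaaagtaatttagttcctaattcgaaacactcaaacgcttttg

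The motifs searched, with the share of the central 200 bases of all 65053 peaks that hold each, were TATAAA (9.91%), CCAAT (23.3%), GGGCGG (15.5%, the GC box), CACGTG (3.72%, the E-box that carbohydrate-response factors can use), TAATTA (6.93%, a homeodomain core), TGTTTAC (6.31%, a forkhead core), GTTAAT (8.88%) and CAGCTG (17.2%, another E-box). CCAAT and GGGCGG can also be read as their reverse complements, ATTGG and CCGCCC. The 1.82 kb peak of Slc2a2 held CACGTG and CAGCTG, the 15.8 kb peak CAGCTG and the 39.5 kb peak TAATTA. These are matches of letters only.

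Of the other Slc2a2 peaks, that 30.2 kb upstream, in an intron of Tnik, had a mean of 0.813 ± 0.671 in αTC1 and 14.9 ± 1.94 in βTC6 (a log2 fold change of 3.21 ± 0.25). The peak 24.1 kb downstream, near an internal transcript start in the annotation, had 0.796 ± 0.385 and 8.39 ± 0.928 (2.41 ± 0.21). The peak 4.16 kb downstream, in an intron of Slc2a2, and that 39.4 kb upstream, in an intron of Tnik, had log2 fold changes of 2.73 and 1.88. The 5 remaining ones were 12.1 kb downstream or 97.5 to 154 kb upstream, and none of them had a log2 fold change over 0.87 in size. The 41 other peaks within 1 Mb of the gene had a median log2 fold change of -0.19, beside 2.14 over the 12 Slc2a2 peaks.

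At Slc2a1 (chr4:118781316-118809935, plus strand), the start-site peak, 128 bp into the gene, was open in both lines. It held 42.9, 47.8, 48.2, 49.7 and 51.7 normalized reads in αTC1 and 29.1, 32.6, 33.8, 37.2 and 47.3 in βTC6. The ranges overlapped, and the log2 fold change of -0.42 ± 0.11 (limma adjusted p = 0.00187) was small beside that of the RNA. It was -0.07 ± 0.11 after quantile normalization (limma adjusted p = 0.585) and -0.24 ± 0.19 in replicates 4 and 5 alone, both of which end the call. An intronic peak 10.0 kb downstream differed far more, with 9.42 to 14.4 normalized reads in αTC1 and 0.135 to 1.85 in βTC6 (-2.60 ± 0.25, limma adjusted p = 9.53e-09). A peak 12.7 kb downstream lay beside it, at 18.2 ± 1.77 against 5.26 ± 1.22. The peaks 2.90 and 6.32 kb upstream did not pass the test (-0.32 ± 0.15 and 0.16 ± 0.22). The peak 29.6 kb downstream, at the start of the neighbouring gene Gm12868, had means of 10.4 ± 2.08 and 6.54 ± 1.75 (-0.61 ± 0.19, a call lost in replicates 4 and 5 alone). The centre of the 10.0 kb peak, which had the largest difference at this gene, holds CAGCTG and TGTTTAC.

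Slc2a1 10.0 kb downstream, chr4:118791277-118791476 (mm9, plus strand): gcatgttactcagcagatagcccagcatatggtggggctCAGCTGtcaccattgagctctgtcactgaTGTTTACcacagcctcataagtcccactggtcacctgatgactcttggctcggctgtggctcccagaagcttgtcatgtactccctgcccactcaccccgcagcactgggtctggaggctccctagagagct

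At Slc2a3 (chr6:122677827-122751658, minus strand), all 4 peaks were more open in αTC1. The start-site peak, 403 bp into the gene, held 27.5, 28.2, 30.8, 36.1 and 37.2 normalized reads in αTC1 and 5.13, 5.35, 5.96, 7.03 and 7.42 in βTC6 (a log2 fold change of -2.20 ± 0.14, limma adjusted p = 2.59e-11). A peak 18.4 kb upstream of that start, still within the annotated span of the gene, held 12 to 22 in αTC1 and 0.71 to 1.64 in βTC6 (-3.22 ± 0.22, limma adjusted p = 7.13e-11), the largest difference at this gene. The other peaks, 2.60 kb downstream and 22.1 kb upstream, had log2 fold changes of -1.31 ± 0.22 and -1.49 ± 0.16. All 4 differences were larger than the chromosome's median of -0.79, as was the median of -1.84 over the 4 peaks, and the 35 other peaks within 1 Mb had a median of -1.06. The 18.4 kb window held CCAAT and CAGCTG.

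Slc2a3 18.4 kb upstream, chr6:122711102-122711301 (mm9, plus strand): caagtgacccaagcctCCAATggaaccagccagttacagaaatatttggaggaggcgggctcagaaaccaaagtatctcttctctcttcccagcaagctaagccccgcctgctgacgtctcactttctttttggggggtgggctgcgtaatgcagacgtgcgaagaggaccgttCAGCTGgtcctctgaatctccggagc

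Hk1 (chr10:61731603-61842656, minus strand) had 3 peaks past the fold threshold, 2 of them more open in αTC1 and 1 in βTC6. The start-site peak, 208 bp into the gene, held 64.4, 71.2, 75.7, 76.3 and 85.1 normalized reads in αTC1 and 11.2, 16.8, 18.1, 20.0 and 24.1 in βTC6 (a log2 fold change of -2.02 ± 0.14, limma adjusted p = 1.37e-10). Its value lay at the fold threshold, which it missed after quantile normalization (-1.78), with a pseudocount of 5 (-1.81), in replicates 4 and 5 alone (-1.90), without αTC1 replicate 5 (-1.97) and without βTC6 replicate 3 (-1.87). It overlapped the downstream of 2 RefSeq start windows of Hk1, and no peak overlapped the upstream one. An intronic peak 19.7 kb downstream held 21.6 to 36.0 in αTC1 and 1.13 to 3.38 in βTC6 (-3.24 ± 0.20). A second intronic peak, at 28.7 kb, held 0.601 to 1.16 in αTC1 and 9.32, 9.66, 11.6, 12.7 and 17.0 in βTC6 (2.73 ± 0.22, limma adjusted p = 7.28e-10). The line with less Hk1 RNA thus had an accessible site within the gene at which each αTC1 library held 4 to 8 reads. Both intronic windows are shown as a pair that moved in opposite directions, and hold CCAAT and CCGCCC respectively. The 73 other peaks within 1 Mb of Hk1 had a median log2 fold change of -0.77.

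Hk1 19.7 kb downstream, chr10:61783343-61783542 (mm9, plus strand): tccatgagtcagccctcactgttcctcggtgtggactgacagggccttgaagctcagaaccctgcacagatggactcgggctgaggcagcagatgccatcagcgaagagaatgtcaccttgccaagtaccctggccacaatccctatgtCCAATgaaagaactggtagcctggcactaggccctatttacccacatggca

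Hk1 28.7 kb downstream, chr10:61774381-61774580 (mm9, plus strand): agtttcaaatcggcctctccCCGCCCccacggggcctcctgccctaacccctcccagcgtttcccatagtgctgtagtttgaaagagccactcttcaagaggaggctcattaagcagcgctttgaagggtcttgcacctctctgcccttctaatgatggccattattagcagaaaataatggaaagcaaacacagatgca

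At Hk2 (chr6:82675019-82724448, minus strand), all 5 peaks were more open in αTC1 and none passed the fold threshold. The start-site peak, 102 bp upstream, held 16.9, 17.7, 17.9, 18.3 and 19.6 normalized reads in αTC1 and 2.71, 3.55, 4.05, 4.23 and 4.92 in βTC6 (a log2 fold change of -1.98 ± 0.16, limma adjusted p = 1.23e-09). Its value lay just short of the fold threshold and passed it by edgeR on the recovered reads (-2.22), after quantile normalization (-2.24), with a pseudocount of 0.5 (-2.10) and in replicates 4 and 5 alone (-2.12). With one library left out it was -1.88 to -2.05, the latter without βTC6 replicate 2. The peak was still above the level of 1 read in βTC6, with 19 to 45 reads per library, although 2 of 3 βTC6 RNA-seq libraries had no Hk2 count. The other 4 peaks changed by -1.16 to -1.70, and the median of the 5 was -1.57 beside -1.25 over the 68 other peaks within 1 Mb and -0.79 over the chromosome. The 250 bases upstream of its RefSeq start, which the peak covers, hold CCAAT on both strands and GGGCGG, and 37.4% and 35.6% of 32817 RefSeq promoter windows of 300 bases hold these.

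Hk2 promoter, chr6:82774455-82774704 (RefSeq, GRCm38.p6, minus strand, 5′ to 3′ along the gene): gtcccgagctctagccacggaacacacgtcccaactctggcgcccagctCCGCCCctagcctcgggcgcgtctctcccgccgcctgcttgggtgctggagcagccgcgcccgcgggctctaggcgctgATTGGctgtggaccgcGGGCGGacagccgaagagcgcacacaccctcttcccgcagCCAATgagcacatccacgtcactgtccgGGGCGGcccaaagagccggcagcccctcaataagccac

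At G6pc2 (chr2:69049130-69065898, plus strand) the start-site peak did not follow the RNA. It held 36.0, 39.2, 39.6, 42.8 and 56.2 normalized reads in αTC1 and 30.2, 38.1, 42.6, 48.3 and 49.8 in βTC6. The ranges overlapped, and the log2 fold change was -0.04 ± 0.13 (limma adjusted p = 0.810), with a sign that turned with the processing: 0.34 ± 0.14 (limma adjusted p = 0.0438) after quantile normalization. In the same lines the RNA differed 24.6-fold. The peak overlaps the downstream of 2 RefSeq start windows of the gene, and the 250 bases before that start hold none of the 8 motifs.

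G6pc2 promoter, chr2:69219699-69219948 (RefSeq, GRCm38.p6, plus strand): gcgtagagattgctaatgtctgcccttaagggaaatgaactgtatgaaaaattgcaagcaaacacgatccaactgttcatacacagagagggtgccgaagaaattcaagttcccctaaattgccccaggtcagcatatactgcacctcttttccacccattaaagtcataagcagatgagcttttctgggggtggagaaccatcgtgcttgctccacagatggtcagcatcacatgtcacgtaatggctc

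The 6 G6pc2 peaks gave 3 calls for βTC6 and 1 for αTC1. An intronic peak 2.88 kb downstream went from 5.55 ± 1.14 (SD) in αTC1 to 14.5 ± 2.62 in βTC6 (1.25 ± 0.17), and one 8.37 kb downstream, just beyond the gene's end, from 2.57 ± 0.633 to 12.6 ± 3.07 (1.91 ± 0.22, limma adjusted p = 1.06e-07). The peak at 28.6 kb, at a start of Gm13613, rose by 0.54 ± 0.15 on the log2 scale (0.37 ± 0.30 and no call in replicates 4 and 5 alone), and that at 56.0 kb had a log2 fold change of -0.11 ± 0.16 (limma adjusted p = 0.555). The 8.37 kb window holds TAATTA at 2 places and CCAAT once, where its reverse complement overlaps a TAATTA.

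G6pc2 8.37 kb downstream, chr2:69066326-69066525 (mm9, plus strand): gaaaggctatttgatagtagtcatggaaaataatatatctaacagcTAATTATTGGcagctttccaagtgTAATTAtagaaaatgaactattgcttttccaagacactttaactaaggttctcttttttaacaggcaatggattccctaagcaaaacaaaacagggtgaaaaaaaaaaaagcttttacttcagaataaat

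G6pc3 (chr11:102050934-102055395, plus strand) showed the converse at its single peak, 126 bp into the gene. It held 16.2, 16.9, 17.3, 18.2 and 18.4 normalized reads in αTC1 and 6.67, 7.70, 8.99, 9.23 and 11.1 in βTC6. The lines did not overlap, with a log2 fold change of -0.93 ± 0.14 (limma adjusted p = 5.27e-06), whereas the RNA difference did not pass the test. The 105 other peaks within 1 Mb had a median log2 fold change of -0.57.

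The bisphosphatase genes lie next to each other on chromosome 13, Fbp1 at chr13:62966113-62989642 and Fbp2 at chr13:62938244-62959760, both on the minus strand. No consensus peak overlapped the RefSeq start window of either. The sole Fbp2 peak lay 2.03 kb inside the gene, at 46.1 ± 1.72 (SD) in αTC1 and 28.5 ± 3.78 in βTC6 (a log2 fold change of -0.68 ± 0.10, limma adjusted p = 3.51e-06). All 6 Fbp1 peaks lay upstream of its start, at 19.7 to 61.5 kb. The nearest, at 19.7 kb, was the strongest of the 44, with 112 to 139 normalized reads in αTC1 and 41.2 to 48.1 in βTC6 (-1.5 ± 0.08). A peak 36.7 kb upstream went against the RNA, with 0.150, 0.420, 1.73, 2.32 and 2.39 in αTC1 and 7.03, 7.38, 8.09, 10.4 and 11.2 in βTC6 (2.15 ± 0.29, limma adjusted p = 1.18e-06). It missed the fold threshold after quantile normalization (1.78), with a pseudocount of 5 (1.12), in replicates 4 and 5 alone (1.97), without αTC1 replicate 1 (1.99) and without αTC1 replicate 3 (1.91). The other 5 peaks were more open in αTC1, by -0.70 to -1.69, and the 53 other peaks within 1 Mb had a median log2 fold change of -0.87.

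**Figure D4:**
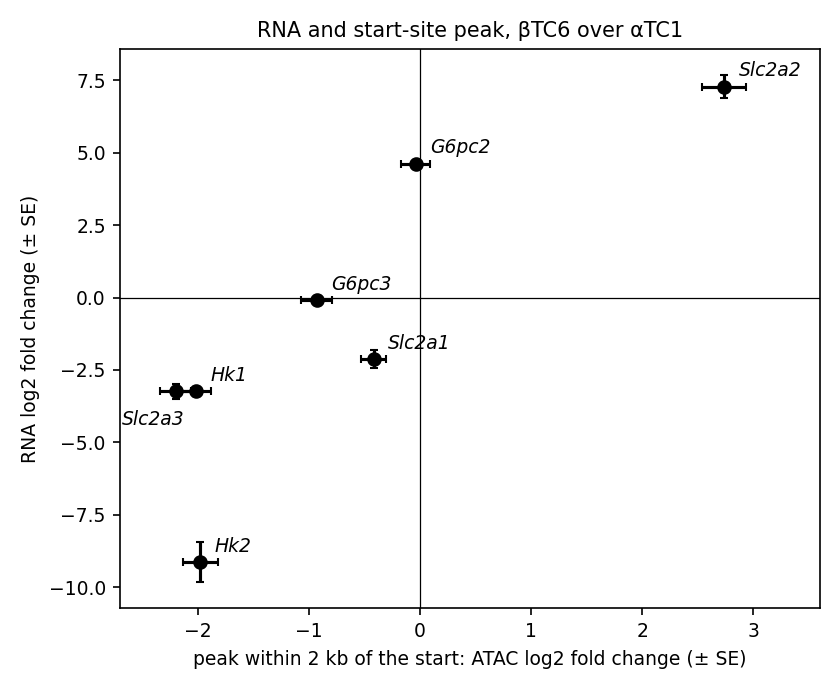
RNA log2 fold change (y axis, with SE) against the ATAC log2 fold change of the peak nearest the start site within 2 kb (x axis, with SE), both βTC6 over αTC1, for the 7 genes that have such a peak. Slc2a2 lies at the upper right, Hk1, Hk2 and Slc2a3 at the lower left, and G6pc2 at an ATAC value of -0.04 with an RNA value of 4.62.

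The peak nearest the start within 2 kb and the RNA were set side by side. They changed the same way in Slc2a1, Slc2a2, Slc2a3, Hk1 and Hk2, and both passed their tests. The ATAC log2 fold changes were -0.42, 2.74, -2.20, -2.02 and -1.98, where the Slc2a2 peak lay 1.82 kb upstream and not over the start. Of all genes tested 38.7% were called higher in βTC6 and 36.0% in αTC1, and of all peaks 39.9% and 38.1%. The share of all genes that pass both tests in one direction was not counted, so the count says nothing particular about these genes. Of the 5 genes, Slc2a2 and Hk2 passed the FPKM filter through 1 line only, so their RNA calls add nothing to the count. The call of the Slc2a1 peak ended after quantile normalization and in replicates 4 and 5 alone. The exceptions among the 7 genes with a peak within 2 kb of their start were G6pc2, whose RNA alone changed, and G6pc3, whose peak alone passed. For every gene but G6pc3 the size of the RNA change by edgeR was greater than that of this peak, on scales that differ in their pseudocount. By limma on log2(FPKM + 1) the RNA change was smaller than that of the peak also for Slc2a2 (2.47) and Hk2 (-1.49). No test was made across these 7 points.

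The mixtures, which took no part in the tests above, were used to ask whether the differences scaled with the share of cells. The normalized read count was compared with the percentage of the line in which a peak was more open, over the 9 mixtures, for the 14 peaks past both thresholds. All 14 had an adjusted p under 0.05 (exact permutation test of Pearson's r, 2-sided, Benjamini-Hochberg over the 14), with r from 0.853 to 0.983, and all 14 also did by Spearman's rho. The 14 were chosen for a difference between the lines that were mixed, which favours this outcome. The test was not run on the other peaks past both thresholds, so the count says nothing particular about these genes. The Slc2a2 peak 15.8 kb upstream fell steadily as αTC1 cells were added, through 47.9, 34.2, 29.9, 26.3, 22.2, 15.3, 12.1, 6.77 and 3.86 from 10 to 90% αTC1 (r = 0.983 with the βTC6 percentage, rho = 1, exact permutation adjusted p = 3.86e-05 for each, from p = 5.51e-06, the smallest that 9 mixtures can give). Without the 10% and 90% mixtures r was 0.997. The 1.82 kb peak fell in the same order at every step, from 18.7 to 2.03 (r = 0.982, rho = 1, exact permutation adjusted p = 3.86e-05).

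The opposed Hk1 sites separated in the mixtures as well. The start-site peak rose from 30.3 at 10% αTC1 to 70.9 at 90% (r = 0.931, rho = 0.933, exact permutation adjusted p = 0.000892 and 0.00117), and the 28.7 kb peak fell from 15.3 to 0.610 (r = 0.958, rho = 0.967, exact permutation adjusted p = 0.000154 and 0.000386). By Pearson's r the weakest relation was that of the Slc2a3 peak 18.4 kb upstream, which rose unevenly from 3.50 to 15.0 (r = 0.853, rho = 0.900, exact permutation adjusted p = 0.00484 and 0.00237). Its r was 0.682 without the 10% and 90% mixtures (exact permutation p = 0.101), which did not pass the test with the 7 mixtures left, while the other 13 peaks kept an r of 0.810 or more without them. By rho the weakest was the Fbp1 peak 36.7 kb upstream (rho = 0.833, exact permutation adjusted p = 0.00827). In the equal mixture the 14 peaks stood between 20.3% and 79.6% of the way from the αTC1 mean to the βTC6 mean, with a median of 51.7%. The G6pc2 start-site peak, which was not among the 14, held 37.5, 38.5, 43.9, 41.6, 44.0, 45.3, 38.8, 50.7 and 56.1 from 10 to 90% αTC1, with the highest values at 80 and 90%, and was not tested.

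**Figure D5:**
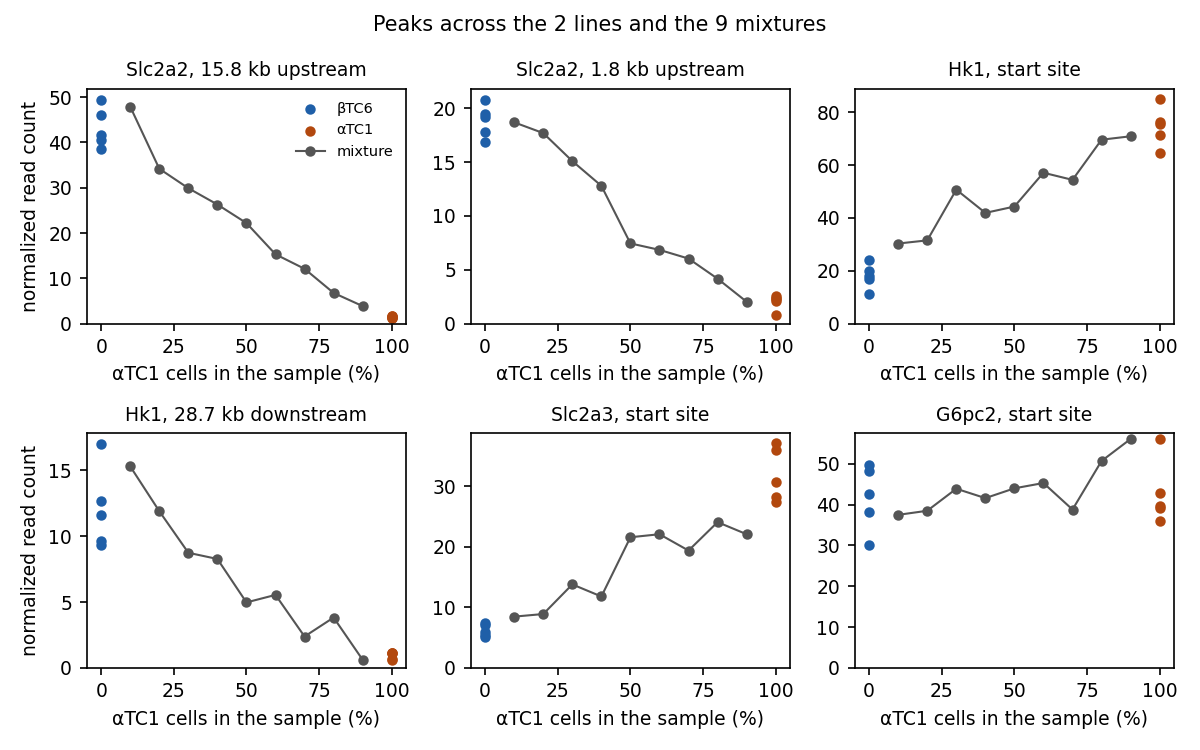
Normalized read count (linear axis from 0) at 6 peaks against the percentage of αTC1 cells: the 5 βTC6 libraries at 0% (blue), the 9 mixtures (grey, joined) and the 5 αTC1 libraries at 100% (orange). The Slc2a2 and 28.7 kb Hk1 peaks fall with αTC1 cells, the Hk1 and Slc2a3 start-site peaks rise, and the G6pc2 start-site peak runs from 37.5 at 10% to 56.1 at 90%.

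Neighbouring genes of the same routes were read from 5 lists with 51 genes, of which 39 passed the FPKM filter. Of these 39, 16 passed the FDR threshold with a higher level in βTC6 and 15 with a higher level in αTC1, and 4 and 2 of them also passed the fold threshold. Over all genes tested, the background for these counts and for those of each list, 38.7% and 36.0% were called, and 10.2% and 4.08% with the fold threshold, so the shares of the list genes at the FDR threshold were near the background. The median log2 fold change was 0.07 beside 0.01 over all genes tested. Of the 37 list genes at 1 FPKM or more in all 6 libraries, 14 and 15 were called, where 34.2% and 37.2% of all such genes were. Without αTC1 replicate 3 the counts were 17 and 14.

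Of 12 other hexose transporters 6 were tested, with 2 called higher in each line and a median of -0.20. Slc2a13, a myo-inositol transporter, was higher in αTC1 (16.5 against 1.93 FPKM, log2 fold change -3.03 ± 0.20), and Slc2a9, a urate carrier, was higher in βTC6 (0.603 against 2.33, 2.51 ± 0.26), the line through which alone it passed the FPKM filter, so that its call supports nothing. The fructose transporter Slc2a5 was the most abundant of this list, at 114 and 95 FPKM, and did not pass the test (-0.15 ± 0.13). The insulin-regulated Slc2a4 stayed under 1 FPKM in all 6 libraries.

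Of 11 other sugar kinases, glucose-6-phosphatase and phosphate carriers, 6 were tested, and 3 were higher in βTC6 and 1 in αTC1 (median 0.71). The ketohexokinase gene Khk rose from 5.09 to 19.4 FPKM (2.28 ± 0.16). Slc37a4, which carries glucose-6-phosphate to the phosphatase inside the endoplasmic reticulum, rose from 6.29 to 14.7 FPKM (1.25 ± 0.13, edgeR adjusted p = 2.26e-05). The liver phosphatase gene G6pc was listed at 0 to 0.03 FPKM in every library.

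At the fructose bisphosphate step all 10 genes were tested, 2 were higher in βTC6 and 5 in αTC1 (median -0.34). Pfkp, Pfkm and Pfkl, the phosphofructokinase subunits, had log2 fold changes of -1.57, -0.77 and -0.63, and that of Pfkl was -0.21 without αTC1 replicate 3 (edgeR adjusted p = 0.0901), which ends its call. Among 13 genes of other fates of glucose-6-phosphate 12 were tested, 7 were higher in βTC6 and 4 in αTC1 (median 0.31), and none passed the fold threshold. Of the 5 glucose-responsive regulators, 2 were higher in βTC6 and 3 in αTC1 (median -0.37). Mlxipl, which encodes the carbohydrate-response factor ChREBP, had 2.71, 2.06 and 8.31 FPKM in αTC1 and 162, 100.0 and 196 in βTC6 (5.36 ± 0.50, and 6.22 without αTC1 replicate 3), whereas its well-known target Txnip was higher in αTC1 (87.4 against 15.5 FPKM, -2.41 ± 0.16).

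The genes most like each of the 8 called genes were sought among all tested genes by the Euclidean distance of log2(FPKM + 1) over the 6 libraries. The closest were Tspan17 and Ddit4 for Slc2a1 (distances 0.411 and 0.502), Spink4 and Hilpda for Slc2a3 (0.759 and 0.874), Higd1a and Glcci1 for Hk1 (0.540 and 1.06), and Gpr162 and Gng3 for Fbp1 (0.314 and 0.534). For the low genes they were Rhox2g and Slit1 for Slc2a2 (0.227 and 0.228), Gm10139 and 2610305D13Rik for Hk2 (0.152 and 0.289), and Gm3448 and Pcdhb21 for Fbp2 (0.378 and 0.427). Few genes had a level and a difference like those of G6pc2: Gm2783 was at a distance of 0.520 and Gapdh at 1.51, and the counts of both were fractional, so that reads were shared with other loci. The counts of Glcci1, Gng3, Rhox2g, Gm10139, 2610305D13Rik and Gm3448 were fractional too. Likeness here is of level and difference over 6 libraries in 2 groups.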

How the data were processed

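ATAC-seq reads were trimmed by the authors with Trimmomatic 0.32, aligned to mm9 with BWA 0.7.9a, stripped of duplicates with Picard 1.95 and called with MACS2 2.1.0 in each sample, and the peaks of all samples were merged with DiffBind 2.2.5 and annotated with HOMER 4.6. The deposited ATAC-seq table holds a TMM-normalized signal, the read count per consensus peak. All of its values were whole multiples of 1 read per library (tolerance 0.01), from which reads were recovered, and none was 0. RNA-seq reads were trimmed with Trim Galore 0.40, and the authors made the deposited expected counts and FPKM with RSEM 1.2.12 on Bowtie2 2.23 alignments. These versions follow the submitters' processing notes and the study's methods. Deposited columns of peak classes hold the authors' own comparison and were not used.

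Expected counts were rounded, 92 spike-in entries were left out, and genes at 1 FPKM or more in every library of either line (12195) were tested with edgeR 4.0.16 (quasi-likelihood, TMM, R 4.3.3). The study normalized counts with RUVSeq on spike-ins, which was not run here, and scaling to summed spike-in counts was run as an alternative. SEs were taken as the absolute log2 fold change over the square root of F. Peaks (65053) were tested with limma 3.58.1 (trend) on log2(normalized read count + 1). Calls used a Benjamini-Hochberg FDR of 5%, counted again with an absolute log2 fold change over 2. Only the libraries of the pure lines entered these fits. Shares and mixtures were tested by exact permutation (Python 3.11.15, numpy 2.4.6, pandas 2.3.3, scipy 1.17.1, figures with matplotlib 3.10.9). The fitting steps were tested on simulated data. Intervals (95%) and the floor of 3 counts cover counting error only. DESeq2 1.42.0 and the other settings in the closing section were alternatives.

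All 9 genes were named, with each peak within 2 kb of a start in the deposited or reference annotation and up to 3 further peaks per gene past both thresholds, ranked by absolute log2 fold change. From each list up to 3 genes per direction past both thresholds were named, with the 2 nearest genes by pattern. Other peaks, list genes and the genes given for αTC1 replicate 3 were chosen after their values were seen. A few items that these rules would name, 1 peak among them, are not reported here, although they stay in the counts. The 9 genes, the lists and the motifs were chosen with earlier results of these data known. Peak windows were read from mm9, and promoter windows from a set of RefSeq windows on GRCm38.p6. The set used here held an entry for 8 of the 9 genes and none for Slc2a3. Each promoter window matched mm9 exactly once.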

Additional observations from a re-analysis of the deposited data

Results flagged for a closer look

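Among 38 groups of 5 libraries at the 19 named peaks, 3 held a library whose gap to the nearest other was above Dixon's 95% limit for its group's range, and chance gives about 1 in 20, or 1.90 of 38. At the Slc2a2 peak 1.82 kb upstream, αTC1 replicate 4 held 0.819 normalized reads, below 2.1 to 2.6 in the other αTC1 libraries. At the Slc2a2 peak 39.5 kb downstream, αTC1 replicate 1 held 2.94, above 1.69 to 2.05 in the others. At the Slc2a3 peak 18.4 kb upstream, αTC1 replicate 5 held 12 normalized reads, below 20.3 to 22 in the others. All 3 values stayed on the αTC1 side of every βTC6 library.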

How the results depend on the processing

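Across the alternatives, the RNA counts at the FDR threshold stayed at 2 genes for βTC6 and at 6 for αTC1, except that limma on log2(FPKM + 1) and on log2(FPKM + 0.1) added G6pc3 to the αTC1 genes. With the fold threshold, αTC1 had 6 genes, 3 by limma on log2(FPKM + 1), which lost Slc2a1 (-1.96), Hk2 (-1.49) and Fbp2 (-1.38), and 5 to 6 with one library left out (5 without αTC1 replicate 3, the lost gene being Slc2a1). Peaks past the fold threshold fell from 8 to 2 for βTC6 and from 6 to 1 for αTC1 with a pseudocount of 5, which shrinks low values by construction, were 6 and 8 after quantile normalization and 10 and 9 by edgeR on the recovered reads, and were 7 to 9 and 5 to 7 with one library left out. Of the values for single peaks, 353 kept direction and call, 4 lost the call and 4 changed sign. The sign changes were all at the G6pc2 start-site peak (-0.04), which was 0.34 after quantile normalization, 0.08 in replicates 1 to 3 alone and -0.10 to 0.07 with one library left out, where it turned without αTC1 replicate 5 (0.06) or without βTC6 replicate 5 (0.07), and the cause was not tested. The Hk1 share difference was 0.849 points with 0.1 added to each FPKM and 1.48 to 1.99 with one library left out, against 1.78. That of Slc2a2 was 26.2 to 29.9, that of G6pc2 50.5 to 51.4 and that of Fbp1 -27.7 to -19.4 with one library left out. Scaling to summed spike-in counts left 2132 genes higher in βTC6 and 1434 in αTC1 over all genes, against 4715 and 4387, and the calls for the 9 genes did not change. Replicate numbers did not pair the samples: the deviations of same-numbered libraries correlated by -0.04 to 0.07, and with the replicate number as a block the counts were 2 and 6 genes and 13 and 25 peaks. Low counts limit Slc2a2 in αTC1 and Hk2 in βTC6, whose fold sizes are uncertain (for Hk2 a log2 fold change of -11.01 to -8.68 with one library left out, -4.19 by limma on log2(FPKM + 0.1) and -1.49 on log2(FPKM + 1), and for Slc2a2 6.73 to 7.93, 5.17 and 2.47), with the same direction in every alternative.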

Other observations

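αTC1 RNA replicate 3, which raised Slc2a1, Slc2a3 and Hk2 above the other αTC1 libraries, also differed from them in other genes of glucose use. Pfkfb3, which makes the activator of phosphofructokinase, measured 5.52 and 5.78 FPKM in replicates 1 and 2 and 17.1 in replicate 3. The lactate transporter gene Slc16a3 measured 14.1, 15.3 and 44, the lactate dehydrogenase gene Ldha 255, 255 and 597, and the pyruvate dehydrogenase kinase gene Pdk1 24.4, 24.7 and 57.2. Of the 33 pathway list genes in the set of 8804, 7 were over 1.5 times the mean of replicates 1 and 2 in replicate 3, as were 2 of the 6 glucose genes in that set and 1.92% of all of them. Ranked by this ratio, Slc2a1 stood at 18 and Slc2a3 at 21. The start-site ATAC-seq peaks of Slc2a1, Slc2a3, Hk1 and Hk2 in the ATAC-seq library numbered αTC1 replicate 3 were 1.04, 0.831, 1.02 and 0.976 times the mean of the other 4, though the labels do not say that libraries with the same number share a culture.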
